A study of Mus musculus and Rattus norvegicus with 79 samples.

Results

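Hepatocyte loss of the glucocorticoid receptor (GR), which Nr3c1 encodes, was examined in mouse liver just before the first meal of the night. The 6 libraries described here, of 79 samples in the series, are 3 of GFP livers and 3 of CRE livers of Nr3c1fl/fl mice, all unfed at Zeitgeber time (ZT) 12, that is 12 h after lights on. They were picked by their labels alone, from the table of raw counts of the virus experiment. Both groups carried the floxed Nr3c1 alleles and an adeno-associated virus injected 10 days before the liver was taken, AAV-tbg-GFP in controls and AAV-tbg-CRE (a recombinase that excises floxed DNA) in the others. The tbg promoter drives expression in hepatocytes, so the other cells of the liver were not targeted. The mice lived under 12 h of light and 12 h of dark and had been trained to eat at night, and their age was not among the labels used. About 5 mg of liver was homogenised, and 1000 ng of total RNA depleted of ribosomal RNA entered each library. The same experiment holds GFP and CRE livers at 5 other hours (unfed at ZT10, fed from ZT13 to ZT22), 3 libraries a group. Untreated C57BL/6 livers (polyA libraries) and GR chromatin immunoprecipitation at ZT10 come from the same series.

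GR is a nuclear receptor that enters the nucleus when bound by a glucocorticoid hormone and regulates genes near its binding sites. In nocturnal rodents, corticosterone rises towards dusk, the hour sampled here. In hepatocytes GR is known for inducing genes of glucose production and amino acid breakdown, along with feedback genes such as Fkbp5 (a chaperone that lowers the receptor's affinity for hormone) and Tsc22d3 (GILZ, an anti-inflammatory mediator).

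Levels are given as CPM, counts per 1 M of a library's tested counts (1 row per gene) after TMM scaling. They are listed in the order replicate 1, 2, 3. Each gene's log2 fold change is CRE minus GFP with its standard error (SE), and a gene is called where the Benjamini-Hochberg adjusted p of edgeR's quasi-likelihood test over all 15712 genes tested is under 0.05. The 6 libraries held 34.64 to 75.23 M counts, of which 13.87 to 39.12 M were in the rows tested. The labels number the replicates but do not say that each is a separate animal. The p-values thus measure the spread between samples of a group, which may be technical. That spread is estimated in 1 fit over all 36 libraries in 12 groups, not from the 6 ZT12 libraries alone.

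2 of the 3 GFP libraries stood apart from the other 4. The row NR_046233, which the gene table used here does not name, held 22.9%, 24.5% and 4.52% of all counts in GFP replicates 1, 2 and 3 and 7.38%, 3.62% and 4.21% in CRE replicates 1, 2 and 3 (exact two-sided permutation p = 0.20, where the smallest possible is 0.10). It exceeded 20% in 6 of the experiment's 36 libraries, among them every GFP library at ZT10. The row was left out of library sizes and tests, but some named genes moved with it. Lars2, a mitochondrial leucyl-tRNA synthetase, was at 52194, 68362 and 1544 CPM in GFP and 5048, 1073 and 1272 CPM in CRE livers. Cdk8 was at 59957, 66418 and 14146 CPM in GFP and 17497, 10271 and 10385 CPM in CRE livers. In both genes GFP replicate 3 lay among the CRE libraries, while GFP replicates 1 and 2 were far above. The same held for 9 of the called genes, all lower in CRE livers, which besides these are Cmss1, Filip1l, Sspn, Il31ra, Mir6236, D130009I18Rik and Cntnap5b. Such calls are not limited to these 9. Camk1d was called at 3742, 5089.9 and 253 CPM in GFP and 468, 356 and 290.3 CPM in CRE livers, with GFP replicate 3 below every CRE library. Cmss1 and Filip1l had nearly equal levels in every library, and whether they count the same reads was not tested. These 9 were picked after their values were seen, and none of them was called once the high-share libraries were left out or the NR_046233 share entered the fit. Results are therefore given in 2 further ways where the call ends: with the share as a covariate, and without the 6 libraries over 20%, which leaves 1 GFP library at ZT12 that is assumed to vary like the other groups.

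**Figure D1:**
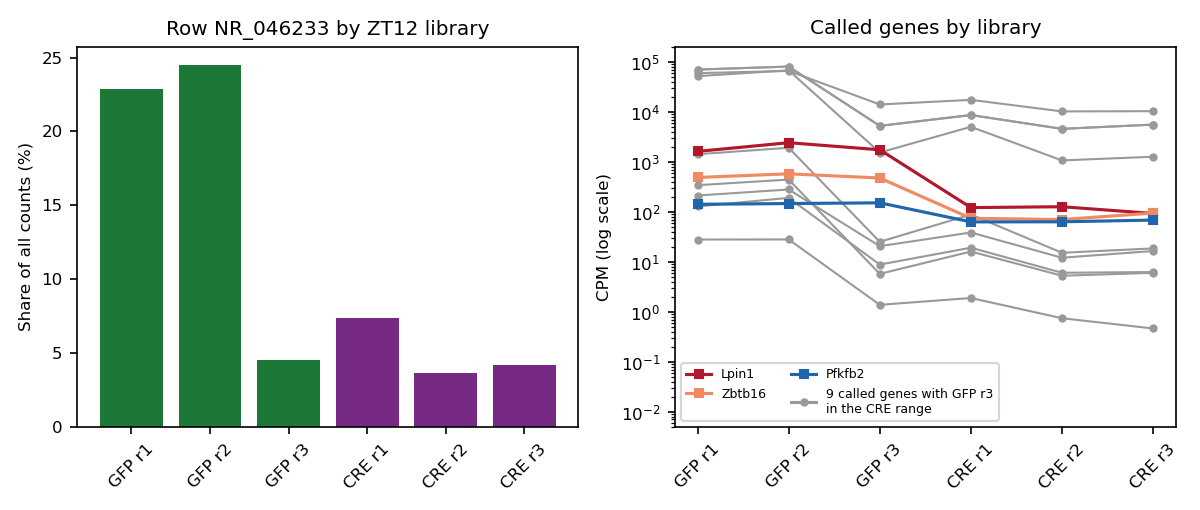
Left, the share of all counts (%) in the row NR_046233 for each ZT12 library. Right, CPM on a log scale of the 9 called genes whose GFP replicate 3 fell inside the CRE range (grey), with Lpin1, Zbtb16 and Pfkfb2 for contrast. The grey genes are far higher in GFP replicates 1 and 2 than in the other libraries, and CRE replicate 1 is their highest CRE library. For the coloured genes all 3 GFP libraries are above the CRE libraries.

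The virus label was checked first on the targeted gene. Nr3c1 was at 209.6, 198 and 233 CPM in GFP livers and at 102, 126 and 113 CPM in CRE livers, so every CRE library was below every GFP library. The log2 fold change was -0.91 ± 0.14 (SE; adjusted p = 0.000111), and the gene stayed called in both further fits (adjusted p = 0.000248 with the covariate and 0.00512 without the high-share libraries). The row counts the whole transcript of the whole liver, including cells in which the tbg promoter is not active. In bulk liver, fewer cells of a type and less RNA per cell cannot be told apart.

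Of the 15712 genes tested, 589 (3.75%) were called between CRE and GFP livers at ZT12. In CRE livers 353 (2.25%) were lower and 236 (1.5%) higher. With DESeq2 436 were lower (2.77%) and 340 higher (2.16%). The 353 lower genes had a median log2 fold change of -0.91 and the 236 higher genes one of 0.73, against 0.01 over all genes tested. The libraries of the groups did not overlap for 575 of the 589. Over all genes, every CRE library was below every GFP library for 1728 genes (11%) and above for 1873 (11.9%). With the NR_046233 share as a covariate 199 genes were lower (1.27%) and 41 higher (0.261%), and without the high-share libraries 96 were lower (0.585%) and 9 higher (0.0548%). The sign was kept for 585 and 579 of the 589 genes in these fits. Both fits reuse libraries that made the calls, so a kept sign is no separate support for them. In all 3 fits 92 genes were lower (0.586%) and 6 higher (0.0382%), and these 98 are called robust below. The median of the 353 lower genes without the high-share libraries was -0.79 and that of the 236 higher genes 0.65.

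Of 25 textbook GR targets measured, 12 were lower in CRE livers, 0 were higher and 13 did not pass, with a median of -1.04. Fkbp5 was at 219, 556 and 362 CPM in GFP and at 69.6, 73.2 and 58.9 CPM in CRE livers, a log2 fold change of -2.49 ± 0.31 (adjusted p = 4.26e-06). The GFP libraries varied widely here but the lowest of them was still well above every CRE library. Zbtb16, a zinc finger transcriptional repressor, was at 489, 579 and 477 CPM against 74.5, 70.4 and 94.8 CPM (-2.69 ± 0.33, adjusted p = 3.56e-06). Tsc22d3 was at 131, 300.2 and 168 CPM against 54.2, 47.8 and 78.8 CPM (-1.73 ± 0.30, adjusted p = 0.000556), without overlap, but it was not called without the high-share libraries (-1.47, adjusted p = 0.0678). Fkbp5, Zbtb16 and Lpin1 are the robust members of the list.

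The other called targets were Errfi1 (an inhibitor of EGF receptor signalling), Klf9 (a transcription factor), Dusp1 (a phosphatase of MAP kinases), Cdkn1a (a cell cycle inhibitor), the metallothioneins Mt1 and Mt2 (metal-binding proteins) and the amino acid enzymes Tat and Sds. Errfi1 was at 1729 to 1836 CPM in the 3 GFP and 627 to 879.9 CPM in the 3 CRE livers, without overlap (-1.24 ± 0.21, adjusted p = 0.000294), with adjusted p = 0.0535 without the high-share libraries. Mt2 was at 39.5, 173 and 20.4 CPM against 1.8, 13 and 2.87 CPM, a log2 fold change of -3.69 ± 0.75 (adjusted p = 0.00262). GFP replicate 2 was the highest library of both metallothioneins. Mt2 was at -2.32 (adjusted p = 0.104) without GFP replicate 2 alone and at -1.78 (adjusted p = 0.667) without the high-share libraries, and its adjusted p was 0.281 with the covariate. Mt1 was at 108, 285 and 61.5 CPM against 10.8, 54 and 17.6 CPM (-2.45 ± 0.60, adjusted p = 0.0152; 0.539 with the covariate, 0.24 without GFP replicate 2 alone and 0.9 without the high-share libraries). Klf9 (-0.70 ± 0.15) and Dusp1 (-1.45 ± 0.37) stayed called with the covariate but had adjusted p = 0.147 and 0.0638 without the high-share libraries. Cdkn1a, a gene of low level here, was at 0.908, 4.46 and 1.13 CPM against 0.567, 0.298 and 0.603 CPM (-1.99 ± 0.56, adjusted p = 0.0398; 0.391 with the covariate and 0.831 without the high-share libraries). Per1, a clock gene and GR target, did not pass (-0.55 ± 0.24, adjusted p = 0.278), nor did Sgk1, a kinase (-0.22 ± 0.17, adjusted p = 0.624).

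Among the 21 measured genes of the receptor, steroid handling and receptor chaperones, Nr3c1 and Fkbp5 were lower and Serpina6 was higher (median 0.01). Serpina6 encodes corticosteroid-binding globulin, which carries the hormone in blood. It was at 247, 206 and 203 CPM in GFP and 314, 362 and 402 CPM in CRE livers (0.72 ± 0.20, adjusted p = 0.0405), without overlap, and was not called with the covariate (adjusted p = 0.295) or without the high-share libraries (0.452). Nr3c2, the mineralocorticoid receptor, was at 157, 116 and 166 CPM against 232, 232 and 251 CPM but did not pass (0.70 ± 0.26, adjusted p = 0.16).

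Lpin1, a phosphatidate phosphatase of triglyceride synthesis that also acts as a transcriptional coactivator, had the smallest p of all genes. It lies on chromosome 12 (chr12:16535669-16653903, mm10). Its level was 1626, 2429 and 1753 CPM in GFP and 122, 127 and 93 CPM in CRE livers. The groups stand more than 10-fold apart with no overlap, and GFP replicate 3 lies between the other GFP libraries. The log2 fold change was -4.09 ± 0.26 (adjusted p = 8.26e-12) and -3.94 (adjusted p = 1.98e-08) without the high-share libraries. In its list of lipin family and triglyceride genes, 4 of 24 measured members were lower, 2 higher and 18 did not pass (median 0.09).

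The 5 other called members of that list went in both directions. Plin5, a coat protein of lipid droplets, was at 35.2, 61.5 and 35.9 CPM against 19.3, 17.5 and 16.4 CPM (-1.31 ± 0.22, adjusted p = 0.000294; 0.104 without the high-share libraries). Plin4, of the same family, fell by 1.54 ± 0.33 and Lpin2 by 0.91 ± 0.22 on the log2 scale, and their adjusted p without the high-share libraries were 0.147 and 0.249. Against these, G0s2, an inhibitor of the triglyceride lipase ATGL, was at 19.3, 14.9 and 13 CPM in GFP and 64.6, 45.7 and 102 CPM in CRE livers. Every CRE library exceeded every GFP library more than 2-fold, with a log2 fold change of 2.18 ± 0.45 (adjusted p = 0.00368; 0.0305 with the covariate and 0.212 without the high-share libraries). Plin2, the main droplet coat of hepatocytes, was at 131, 114 and 133 CPM against 211, 221 and 243 CPM (0.84 ± 0.19, adjusted p = 0.0082; 0.204 with the covariate and 0.482 without the high-share libraries).

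**Figure D2:**
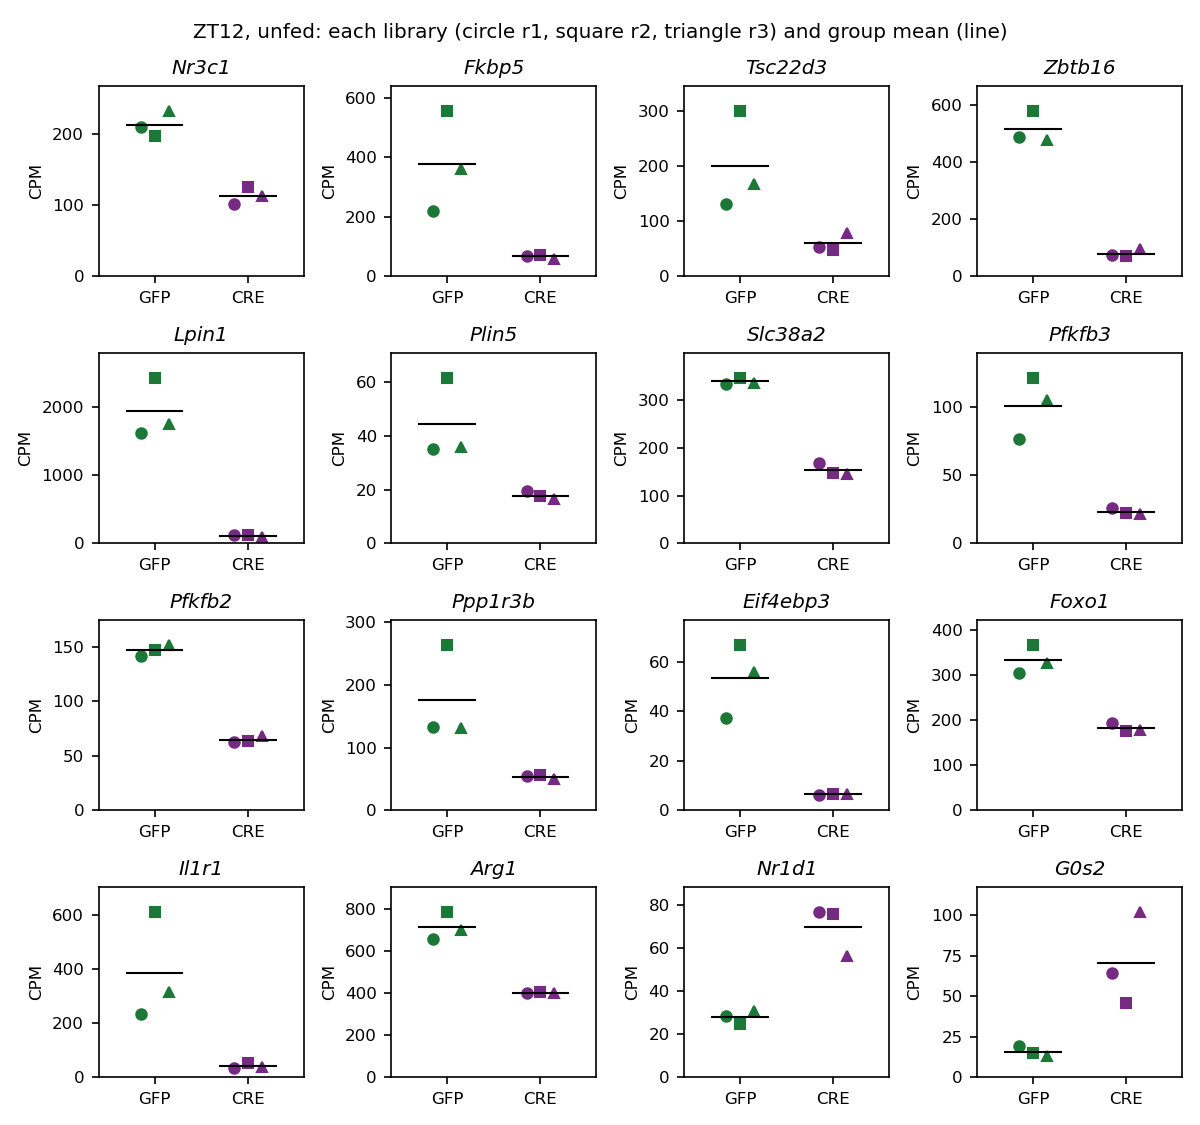
CPM (linear axes from 0) of 16 genes at ZT12 in GFP livers (green) and CRE livers (purple); each symbol is 1 library, the same symbol marks the same replicate number, and the line is the mean of 3. The groups do not overlap in any panel: the CRE libraries are lower for all genes but Nr1d1 and G0s2. GFP replicate 2 is the highest GFP library for all of the lower genes but Nr3c1 and Pfkfb2.

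Genes that set the level of fructose-2,6-bisphosphate, an activator of glycolysis, were among the called genes. Of 21 measured genes of glucose uptake and glycolysis, 4 were lower, 0 higher and 17 did not pass (median -0.06), and all 4 are robust. Pfkfb2, a bifunctional enzyme that makes and degrades fructose-2,6-bisphosphate, was at 142, 147 and 152 CPM in GFP and 63.1, 63.4 and 68.6 CPM in CRE livers. Both groups were tight, and the log2 fold change was -1.18 ± 0.11 (adjusted p = 5.41e-08). Its relative Pfkfb3 was at 76, 121 and 105 CPM against 25.6, 22.1 and 21.8 CPM (-2.12 ± 0.24, adjusted p = 1.04e-06), and Pfkfb1, the main liver form, at 79.2, 104 and 100.1 CPM against 38.4, 57.5 and 35 CPM (-1.11 ± 0.22, adjusted p = 0.00247). Pfkfb4 was near 1 CPM and did not pass (0.23 ± 0.37, adjusted p = 0.87).

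Of 20 measured gluconeogenesis genes, 5 were lower and 0 higher, with a median of -0.28. Foxo1, a transcription factor that insulin signalling keeps out of the nucleus, was at 306, 368 and 328 CPM in GFP and 195, 176 and 178 CPM in CRE livers (-0.87 ± 0.11, adjusted p = 4.52e-06) and is robust. Slc37a4, the glucose-6-phosphate transporter, fell by 0.68 ± 0.14 on the log2 scale (adjusted p = 0.00367; 0.2 without the high-share libraries). The other called genes of the list were Tat, Sds and Got1, which handle amino acids. The 2 best known gluconeogenic enzymes did not pass. Pck1 was at 3309, 4065 and 3372 CPM against 2030.3, 1977 and 2027 CPM, groups that do not overlap (-0.83 ± 0.24, adjusted p = 0.0508). G6pc was at 347, 299.9 and 371 CPM against 210.4, 147 and 367 CPM, where CRE replicate 3 lay among the GFP libraries (-0.49 ± 0.36, adjusted p = 0.61).

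In the glycogen list 1 of 20 measured members was lower and 0 higher (median 0.06). That gene is Ppp1r3b, the liver subunit that brings protein phosphatase 1 to glycogen. It was at 133, 264 and 131 CPM in GFP and 55.3, 56.7 and 49.3 CPM in CRE livers (-1.71 ± 0.31, adjusted p = 0.000717), and at -1.28 (adjusted p = 0.0928) without the high-share libraries. The related subunits Ppp1r3c and Ppp1r3g did not pass (-1.01 ± 0.45 and 0.06 ± 0.70, adjusted p = 0.29 and 0.988). Of 24 measured genes of insulin signalling, 2 were lower and 1 higher (median -0.06). Eif4ebp3, a repressor of cap-dependent translation, was at 37.3, 66.8 and 56 CPM against 6.18, 6.55 and 6.7 CPM (-3.04 ± 0.31, adjusted p = 2.01e-07) and is robust, and the other lower gene is Foxo1. Irs1, an adaptor of the insulin receptor, was at 63.1, 61.5 and 63 CPM against 98, 91.5 and 101 CPM (0.63 ± 0.18, adjusted p = 0.0464; 0.0484 with the covariate and 0.478 without the high-share libraries). Irs2 was at 42.9, 38 and 50.8 CPM against 83.6, 61.8 and 79.4 CPM and did not pass (0.76 ± 0.30, adjusted p = 0.2), nor did Insr, the receptor itself (0.13 ± 0.09, adjusted p = 0.603).

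Some amino acid enzymes were among the called genes. Of 25 measured genes of amino acid breakdown and the urea cycle, 7 were lower, 0 higher and 18 did not pass (median -0.32). None of the 7 is robust, and 2 were called with the covariate. Aass, which opens lysine breakdown, was at 1002, 807 and 596 CPM in GFP and 295, 303 and 309.6 CPM in CRE livers (-1.41 ± 0.24, adjusted p = 0.000374; 0.189 without the high-share libraries). Arg1, the arginase of the urea cycle, was at 658, 787 and 701 CPM against 403, 404 and 401 CPM (-0.83 ± 0.14, adjusted p = 0.000458; 0.0678 without the high-share libraries). The CRE libraries were nearly equal to each other for both genes, and GFP replicate 3, the GFP library with the low share, was above them. Tat, tyrosine aminotransferase, was at 2148, 2550.3 and 1619 CPM against 1052, 983 and 1060.5 CPM (-1.03 ± 0.23, adjusted p = 0.00806; 0.167 with the covariate and 0.793 without the high-share libraries). Sds, serine dehydratase (-1.43 ± 0.33), Cps1, which commits ammonia to the urea cycle (-0.67 ± 0.15), Asl, argininosuccinate lyase (-0.79 ± 0.19), and Sdsl (-1.21 ± 0.34) completed the list, and their adjusted p lay between 0.146 and 0.57 with the covariate. Of 19 measured amino acid transporters, 3 were lower and 0 higher (median 0.06). Slc38a2, a transporter of small neutral amino acids, was at 334, 346 and 336 CPM against 169, 148 and 146 CPM (-1.13 ± 0.20, adjusted p = 0.000649; 0.0814 without the high-share libraries). Slc43a1 (-1.49 ± 0.30) and the glycine transporter Slc6a9 (-0.81 ± 0.22) were also lower, with adjusted p = 0.16 and 0.337 without the high-share libraries.

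Hepatocyte marker lists share rows with these enzymes, Cps1 in one and Arg1, Sds and Asl in the other. Of 10 hepatocyte markers 3 were lower (Hnf4a, Apoa1 and Cps1) and 7 did not pass, and their summed level was 80908 to 97037 CPM in GFP and 69100.5 to 73791 CPM in CRE livers (exact two-sided permutation p = 0.10, the smallest possible). Of 10 periportal markers 3 were lower (Arg1, Sds and Asl) and 7 did not pass, with a summed level of 7835 to 9969 CPM against 5583 to 5989 CPM (exact permutation p = 0.10). Of 11 pericentral markers 2 were higher and 9 did not pass, with a summed level of 8534 to 9805 CPM against 8176 to 9314 CPM (exact permutation p = 0.60). Called or not, every CRE library was above every GFP library for 4 of the 11 and below for 2 (11.9% and 11% over all genes). The 2 called are Tbx3, a transcription factor, at 22.2, 19.3 and 26.2 CPM against 50.8, 48.3 and 54.6 CPM (1.17 ± 0.26, adjusted p = 0.00627), and Lgr5, a receptor of Wnt-enhancing R-spondins (1.12 ± 0.31, adjusted p = 0.0378). None of these called markers is robust. The part of these markers in the results for enzymes was not tested.

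Markers of other cells were called in no list. Kupffer cell markers (11 measured) summed to 194 to 342 CPM in GFP and 153 to 356 CPM in CRE livers, endothelial markers (10) to 567 to 599.8 against 482 to 556 CPM, and stellate markers (10) to 333 to 377 against 326 to 380.0 CPM. Bile duct markers (7) summed to 14.2 to 19 against 18.5 to 31 CPM, lymphoid markers (9) to 16.5 to 28.7 against 19.7 to 27.1 CPM and pancreatic markers (7) to 7.86 to 14.2 against 9.82 to 13.2 CPM. The red blood cell sum (5 markers), at 75.7 to 88 against 101 to 117 CPM, was higher in every CRE library. So was the fat cell sum (3 markers), at 19.4 to 24.2 against 26.3 to 29.9 CPM. The endothelial sum was lower in every CRE library. No gene was called in these lists, with exact permutation p = 0.10 for each sum. In the red blood cell list only 1 gene was itself higher in every CRE library, Alas2 (73.1, 67.1 and 73.1 against 108, 86.1 and 87.4 CPM). In the fat cell list too it was 1 gene, Lipe. Of 8 neutrophil markers 1 was measured, S100a9, at up to 2.33 CPM.

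**Figure D3:**
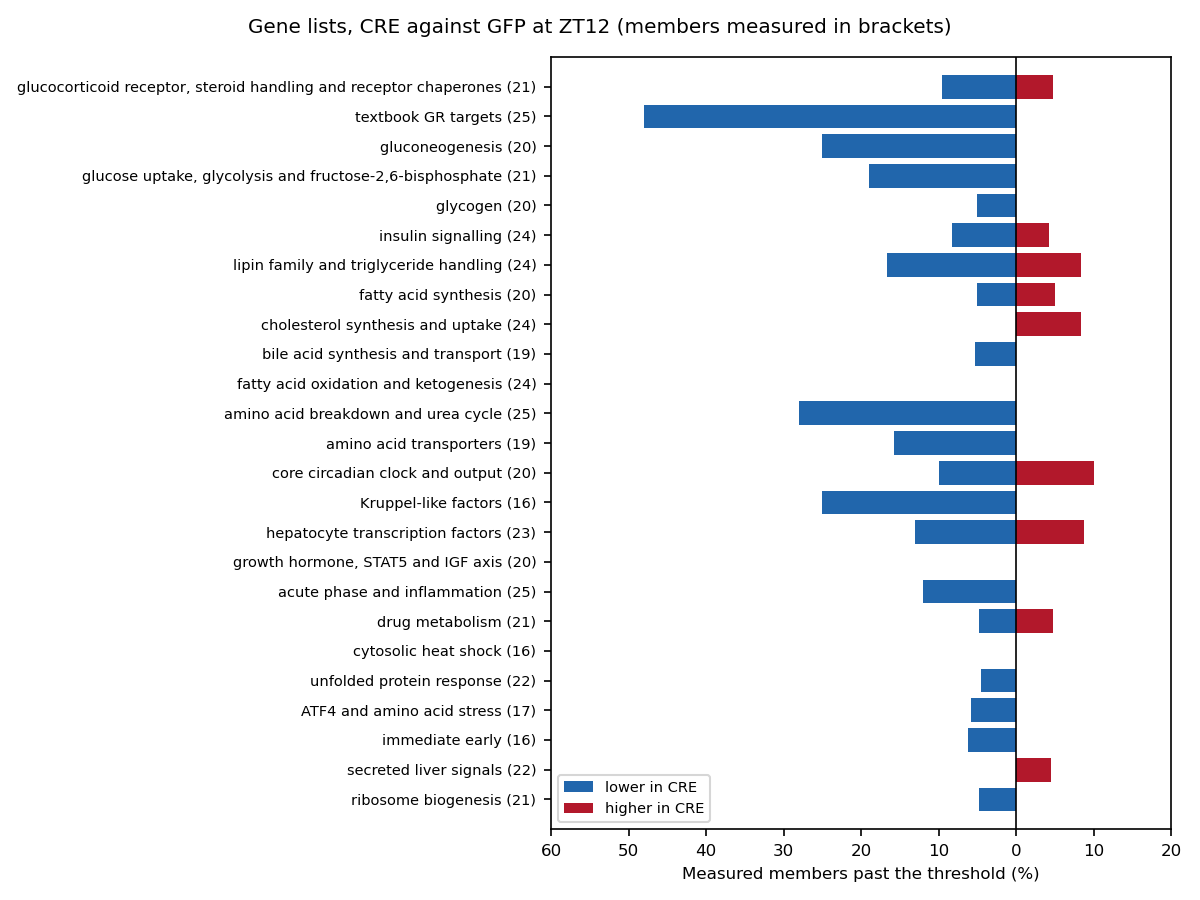
Share (%) of the measured members of each of 25 gene lists that were called lower (left) or higher (right) in CRE than in GFP livers at ZT12, with the number measured in brackets. Over all 15712 genes 2.25% were lower and 1.5% higher; the textbook GR targets have the longest bar, with 12 of 25 lower.

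Transcription factors and signalling genes of hepatocytes were also among the called genes. Of 23 measured hepatocyte transcription factors, 3 were lower and 2 higher (median 0.10). Cebpd, a factor of the acute phase, was at 7.2, 13.6 and 9.25 CPM in GFP and 2.9, 3.55 and 3.89 CPM in CRE livers (-1.52 ± 0.26, adjusted p = 0.00045) and is robust. Hnf4a, which maintains hepatocyte identity, was at 807, 911 and 793 CPM against 562, 557 and 546 CPM (-0.59 ± 0.12, adjusted p = 0.00227; 0.268 without the high-share libraries). Cebpb was lower (-0.79 ± 0.19) and Nr2f2 higher (0.49 ± 0.12). Their adjusted p without the high-share libraries were 0.162 and 0.9. Of 16 measured Kruppel-like factors 4 were lower and 0 higher (median -0.16): Klf13, Klf9, Klf3 and Klf15. Klf13 was at 231, 267 and 242 CPM against 142, 140.1 and 132 CPM (-0.84 ± 0.13, adjusted p = 0.000139) and is the robust member, while Klf3 and Klf15 were not called with the covariate (adjusted p = 0.3 and 0.262).

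In the clock list of 20 measured genes, 2 were higher and 2 lower, with a median of -0.02. Nr1d1, the repressor REV-ERBα, was at 28.4, 24.6 and 30.8 CPM in GFP and 76.9, 76 and 56.5 CPM in CRE livers (1.32 ± 0.27, adjusted p = 0.00356; 0.0288 with the covariate and 0.411 without the high-share libraries). Dbp, a clock output factor, was at 93.4, 61.3 and 132 CPM against 157, 163 and 152 CPM (0.71 ± 0.20, adjusted p = 0.0451; 0.587 with the covariate). The groups do not overlap for either gene, though GFP replicate 3 comes close to the CRE libraries for Dbp. Ciart, a repressor of the clock, was at 24.6, 21.3 and 23.3 CPM against 11, 11 and 9.5 CPM (-1.14 ± 0.23, adjusted p = 0.00303; 0.135 without the high-share libraries), and Usp2, a ubiquitin protease, was lower (-0.54 ± 0.15, adjusted p = 0.0301; 0.143 without the high-share libraries). Arntl (BMAL1) was at 6.09, 15.5 and 4.44 CPM against 5.77, 5.58 and 6.07 CPM and did not pass (-0.47 ± 0.29, adjusted p = 0.505).

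Of 25 measured acute phase and inflammation genes 3 were lower and 0 higher (median -0.31). Il6ra, the interleukin 6 receptor, was at 162, 266 and 198 CPM against 69.7, 75.6 and 77.1 CPM (-1.49 ± 0.26, adjusted p = 0.000531; 0.0638 without the high-share libraries). The acute phase proteins Hp, haptoglobin (-0.81 ± 0.24), and Serpina3n, a protease inhibitor (-0.65 ± 0.18), were not called with the covariate (adjusted p = 0.634 and 0.698). Outside this list, Il1r1, the receptor for interleukin 1, was at 234, 612 and 317 CPM in GFP and 34.6, 53.3 and 38 CPM in CRE livers (-3.21 ± 0.35, adjusted p = 5.49e-07). Nlrp12, an intracellular receptor that dampens inflammation, was at 20.4, 35.5 and 33.4 CPM against 3.94, 3.45 and 2.53 CPM (-3.18 ± 0.38, adjusted p = 2.01e-06). Both are robust, and the lowest GFP library of each was several times the highest CRE library.

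The remaining lists held few called genes. Fatty acid synthesis (20 measured, median 0.20) had 1 lower and 1 higher gene: Thrsp, a lipogenic protein, fell by 1.49 ± 0.29, and Elovl5, which elongates polyunsaturated fatty acids, rose by 0.82 ± 0.22 on the log2 scale (adjusted p = 0.0757 and 0.0174 without the high-share libraries; 0.00313 and 0.298 with the covariate). Srebf1, the lipogenic transcription factor, did not pass (0.41 ± 0.19, adjusted p = 0.289). Cholesterol synthesis and uptake (24, median 0.11) had 2 higher genes and 0 lower, among them the sterol enzyme Sc5d (0.37 ± 0.10), which was not called with the covariate (adjusted p = 0.437). Bile acid genes (19, median 0.08) had 1 lower, Cyp27a1, a sterol hydroxylase (-0.74 ± 0.15; adjusted p = 0.0655 with the covariate), while Cyp7a1, the rate-limiting enzyme, was at 371, 213 and 317 CPM against 323, 407 and 363 CPM and did not pass (adjusted p = 0.805). Drug metabolism (21, median -0.13) had the sulfotransferase Sult1d1 lower (-1.24 ± 0.29) and Cyp2b9 higher (adjusted p = 0.00868 and 0.034; 0.173 and 0.394 with the covariate). Cyp2b9 was at 0, 0 and 0.395 CPM in GFP and 3.62, 10.6 and 108 CPM in CRE livers, so CRE replicate 3 stands far above the rest. No gene was called in fatty acid oxidation and ketogenesis (24, median 0.08), in the growth hormone, STAT5 and IGF axis (20, median -0.02) or among cytosolic heat shock genes (16, median 0.03). The unfolded protein response (22, median -0.03) had Herpud1 lower, the ATF4 list (17, median -0.16) Cebpb, the immediate early list (16, median 0.04) Dusp1 and ribosome biogenesis (21, median -0.18) Polr1a. Herpud1 and Polr1a had adjusted p = 0.155 and 0.28 without the high-share libraries. Among secreted liver signals (22, median -0.03) Inhbe, an inhibin subunit, was higher (1.27 ± 0.31; adjusted p = 0.0863 with the covariate), and Fgf21 and Angptl8 did not pass (adjusted p = 0.982 and 0.685). Igfbp1 was at 55.6, 113 and 47.3 CPM against 20.3, 16.8 and 11.6 CPM without overlap and did not pass (-2.14 ± 0.70, adjusted p = 0.0923).

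Outside the lists, the strongest falls among genes of at least 5 CPM on average included Scara5, AA986860, Serpina4-ps1, Gadd45g and Mfsd2a. Scara5, a scavenger receptor for ferritin, was at 142, 279 and 104 CPM in GFP and 5.61, 5.16 and 3.27 CPM in CRE livers (-5.23 ± 0.96, adjusted p = 0.000988; 0.0675 without the high-share libraries). Gadd45g, a stress sensor, was at 16.1, 30.9 and 34.3 CPM against 1.89, 2.88 and 1.25 CPM (-3.76 ± 0.86, adjusted p = 0.00864) and is robust. Mfsd2a, a transporter of lysophospholipids, was at 155, 133 and 137 CPM against 4.22, 3.72 and 45.5 CPM, where CRE replicate 3 was more than 10 times the other CRE libraries but still below every GFP library (-2.98 ± 0.76, adjusted p = 0.0213; 0.225 without the high-share libraries). Serpina4-ps1, a pseudogene of a family with near-identical copies, was at 479, 455 and 621 CPM against 50.7, 8.06 and 37.2 CPM and is uncertain for that reason (adjusted p = 0.00368; 0.0563 without the high-share libraries). AA986860 was at 52.5, 73.8 and 44.4 CPM against 2.14, 3.6 and 3.64 CPM (-4.17 ± 0.38) and is robust. Srrm4 (-2.61 ± 0.31) and its antisense partner Srrm4os (-2.64 ± 0.31) had nearly equal levels in every library, and reads of such a pair cannot be told apart here. Tmc7 (-2.56 ± 0.28) and the oxysterol hydroxylase Cyp39a1 (-2.52 ± 0.34) were robust too.

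The 6 robust genes that rose are Lgals1, Hamp2, Efna1, Efna3, Hmox1 and Mug-ps1. Lgals1, galectin-1, a sugar-binding protein, was at 4.02, 1.94 and 2.57 CPM in GFP and 11.6, 14.1 and 11.1 CPM in CRE livers (2.10 ± 0.31, adjusted p = 7.30e-05). Hamp2, a relative of the iron hormone hepcidin, was at 6.68, 8.35 and 4.32 CPM against 20.9, 34.7 and 44.9 CPM (2.43 ± 0.41, adjusted p = 0.000309). Efna1 and Efna3, ephrin ligands of Eph receptors, were at 19, 11.8 and 13.2 against 46.8, 36.6 and 36.6 CPM (1.44 ± 0.25) and at 3.5, 2.33 and 1.46 against 8.63, 9.6 and 5.63 CPM (1.77 ± 0.36). The groups did not overlap for any of these 4. Hmox1, heme oxygenase 1, rose by 1.20 ± 0.22 on the log2 scale (adjusted p = 0.000824). Hmox1 and Mug-ps1 were named after their values were seen, to complete the count.

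The hours next to ZT12 gave the same directions with different numbers of calls. At ZT10, also unfed, 109 genes were called (0.694%), 74 lower (0.471%) and 35 higher (0.223%). At ZT13, in fed mice, 792 were called (5.04%), 495 lower (3.15%) and 297 higher (1.89%). The libraries of these hours are separate, but hour and food differ together between ZT12 and ZT13. Of the 353 genes lower at ZT12, 66 were also lower at ZT10 (18.7% of the ZT12 genes and 89.2% of the ZT10 genes) and 247 at ZT13 (70% and 49.9%). Of the 236 higher genes, 20 were also higher at ZT10 (8.47% and 57.1%) and 91 at ZT13 (38.6% and 30.6%). None was called in the opposite direction at either hour. The 353 lower genes had median log2 fold changes of -0.48 at ZT10 and -0.79 at ZT13 against -0.91 at ZT12, and the 236 higher genes 0.34 and 0.51 against 0.73. These genes were chosen at ZT12, and every GFP library at ZT10 had a high NR_046233 share.

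Lpin1 shows the pattern across the hours. In GFP livers it was at 663 ± 54.3 CPM (SD, n = 3) at ZT10, 1936 ± 432 at ZT12 and 1802 ± 686 at ZT13, and in CRE livers at 124 ± 23.6, 114 ± 18.2 and 96.6 ± 28.5. The GFP level at ZT12 was nearly 3 times that at ZT10, while the CRE levels of the 3 hours overlapped. Il1r1 was at 149 ± 44.7, 388 ± 199 and 410.2 ± 163 CPM (SD, n = 3) in GFP and 69.4 ± 6.85, 42 ± 9.96 and 117 ± 50.3 in CRE livers. Pfkfb3 was at 72.6 ± 20.4, 101 ± 22.9 and 111 ± 42 CPM in GFP and 26.7 ± 7.05, 23.2 ± 2.15 and 59.9 ± 13.7 in CRE livers, so its CRE level was higher at ZT13 than at ZT12. Pfkfb2 was at 114 ± 2.55, 147 ± 4.68 and 162 ± 30.1 CPM in GFP and 66.3 ± 5.36, 65 ± 3.1 and 71.6 ± 3.34 in CRE livers, so in GFP livers every ZT12 library was above every ZT10 library, while in CRE livers the libraries of these hours overlapped.

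Whether the effect of CRE at ZT12 differs from that at other hours was tested directly. Against ZT10, 0 genes passed with edgeR (643 at an unadjusted p under 0.05, 4.09%) and 1 with DESeq2. The gene with the smallest p was Lpin1, whose effect at ZT12 was lower by 1.67 ± 0.32 on the log2 scale, with adjusted p = 0.25. Against ZT13, 0 genes passed with edgeR (634 unadjusted, 4.04%) and 10 with DESeq2, and with edgeR 5 passed without GFP replicate 3. That last fit leaves only the 2 high-share GFP libraries at ZT12 (22.9% and 24.5%), against shares of 2.3% to 4.55% in GFP libraries at ZT13. Pfkfb3 differed by -1.23 ± 0.33 from ZT13 (adjusted p = 0.631). Against the mean effect of the 5 other hours, 27 genes passed (0.172%; 1003 unadjusted, 6.38%), 26 with a lower value at ZT12 (0.165%) and 1, Depdc7, with a higher one (0.00636%). Lpin1 led with a difference of -1.87 ± 0.25 (adjusted p = 0.000589), and it stayed past the threshold with the covariate (adjusted p = 0.00638). With the covariate 2 genes passed, Lpin1 and Myo1e (an unconventional myosin), without GFP replicate 2 only Lpin1 did, and without GFP replicates 1 and 2 there were 0, with Lpin1 at -1.72 ± 0.31 (adjusted p = 0.126).

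**Figure D4:**
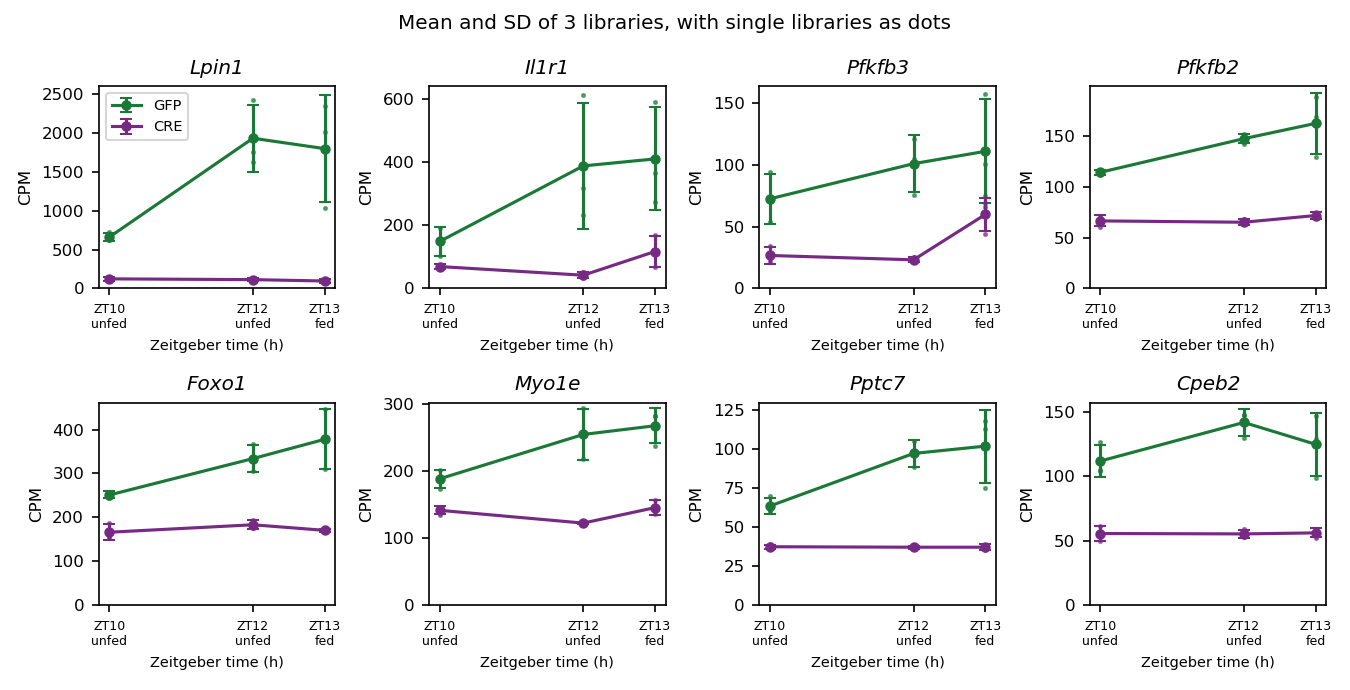
CPM at ZT10 (unfed), ZT12 (unfed) and ZT13 (fed) in GFP livers (green) and CRE livers (purple) for 8 genes; circles with bars are the mean and SD of 3 libraries, and dots are single libraries. GFP Lpin1 goes from a mean of 663 at ZT10 to 1936 at ZT12 while the CRE mean stays between 96.6 and 124, and Pfkfb3 is higher at ZT13 than at ZT12 in CRE livers.

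The genes called at ZT12 were then followed in other libraries, the untreated C57BL/6 livers, by comparing unfed livers at ZT13 with unfed livers at ZT10. Of 14744 genes tested there, 1436 rose (9.74%) and 1345 fell (9.12%) across dusk. Of the 351 genes lower in CRE livers that were measured, 219 rose (62.4%), 0 fell, and the median log2 change was 0.62. Of the 234 genes higher in CRE livers, 126 fell (53.8%), 0 rose, and the median was -0.53. The median over all genes of the virus experiment measured there was -0.02. Of the 91 robust lower genes measured, 74 rose (81.3%), and of the 6 robust higher genes 2 fell (33.3%). Lpin1 went from 209, 345 and 376 CPM at ZT10 to 1814, 2088 and 1723 CPM at ZT13 (2.60 ± 0.47, adjusted p = 0.00033). Pfkfb3 went from 24.3, 32.1 and 30.6 to 75.7, 115 and 67.6 CPM (1.57 ± 0.30, adjusted p = 0.000564), and Foxo1 from 52.9, 58.3 and 56 to 99.8, 99.1 and 119 CPM. In the other direction, Efna3 went from 8.12, 9.31 and 10.1 to 0.68, 1.39 and 1.3 CPM (-3.02 ± 0.44) and Nr1d1 from 102, 88.7 and 177 to 26.8, 20.8 and 20.5 CPM (-2.43 ± 0.22). No library of ZT13 overlapped with one of ZT10 for these 5 genes. Nr3c1 did not change across dusk past the threshold (0.03 ± 0.09, adjusted p = 0.873). The clock genes Nr1d1 and Dbp, which fall across dusk in C57BL/6 livers, were higher in CRE livers at ZT12, and their part in this pattern was not tested.

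**Figure D5:**
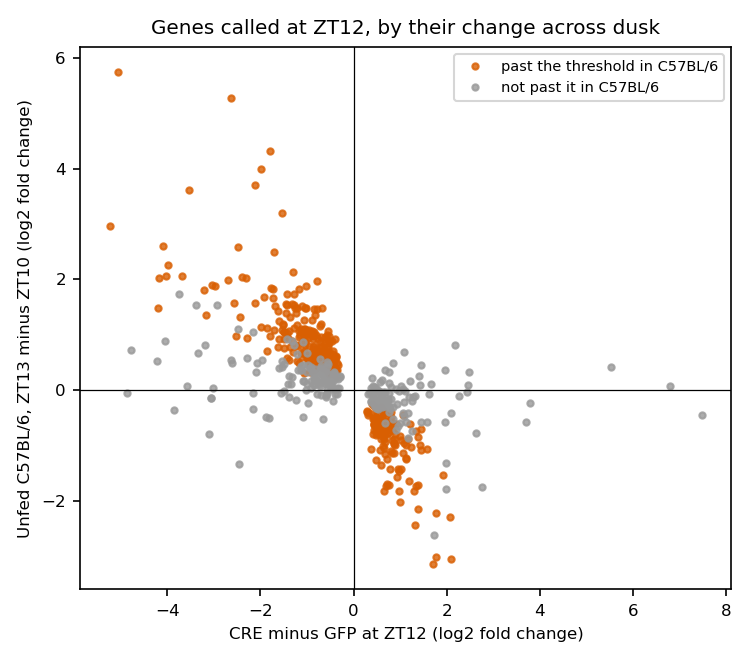
Each point is a gene called at ZT12: the horizontal axis is its log2 fold change CRE minus GFP, the vertical axis its log2 fold change between unfed C57BL/6 livers at ZT13 and ZT10, in orange where that change passed the threshold. The orange points lie in the upper left (219 genes) and lower right (126 genes) parts of the plot and in no other.

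GR binding at ZT10 was compared with these genes through the authors' deposited peak lists. The main list, of untreated C57BL/6 liver, is named as concordant between replicates, although the labels give 1 GR sample for it. Of all genes tested, 28.6% had a concordant peak within 25 kb of the gene. The share was 81.9% (289 of 353; 95% Wilson interval 77.5 to 85.5%) among genes lower in CRE livers at ZT12 and 41.1% (97 of 236; 35 to 47.5%) among higher genes. Among the 92 robust lower genes it was 87%, and among the 6 robust higher genes 16.7% (1 gene). Lower genes were also longer (median 41.7 kb, against 30.9 kb for higher genes and 22.6 kb for all) and of higher level (median 69.9, 34 and 12.2 CPM), and the part of length and level in these shares was not tested. Lpin1 holds 3 such peaks inside the gene (chr12:16590011-16590219, chr12:16618556-16618764 and chr12:16630490-16630698, mm10). Zbtb16 has 6 and Fkbp5 4 inside the gene, Tsc22d3 8 of which 5 are inside, and Pfkfb3 3 of which 1 is inside. Pfkfb2 and Pfkfb1, both robust, have none within 25 kb.

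Promoters were read because peaks also fall on them. RefSeq windows from 250 bases before to 50 after a start (GRCm38.p6) were at hand for 269 of the 353 lower and 187 of the 236 higher genes. A concordant peak overlapped 1.05% of the 15573 windows of all genes tested, 2.96% of those of lower genes (11 genes) and 1.53% of those of higher genes (4 genes). The 13-base palindrome GNACANNNTGTNC, a form of the GR response element that reads the same on both strands, was found in 0.398% of all windows, in 6 of 371 windows (1.62%) of lower genes and in 0 of 262 of higher genes. The 6 windows hold 5 palindromes in 5 genes, since the windows of 2 close starts of Fam107a hold the same one. The 3 lower genes with both the palindrome and an overlapping peak, and Fam107a, which has the palindrome and the largest fall of these genes but no overlapping peak, are shown 5′ to 3′ on the gene's strand, with the palindrome in capitals. They were chosen for the match, after their values were seen.
Mt1, chr8:94178971-94179031, plus strand: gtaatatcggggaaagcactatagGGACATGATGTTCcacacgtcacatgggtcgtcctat
Serpina3n, chr12:104406606-104406666, plus strand: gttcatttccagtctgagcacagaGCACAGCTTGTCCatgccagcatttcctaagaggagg
Gm16573, chr14:56620657-56620717, minus strand: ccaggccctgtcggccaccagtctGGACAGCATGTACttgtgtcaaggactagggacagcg
Fam107a, chr14:8309861-8309921, minus strand: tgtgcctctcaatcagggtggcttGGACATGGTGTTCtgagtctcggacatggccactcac

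The palindrome lies at bases -94 to -82 before the start of Mt1, -78 to -66 of Serpina3n and -180 to -168 of Gm16573. Gm16573 was at 51.4, 70.4 and 57.1 CPM in GFP and 20.4, 19.4 and 18.8 CPM in CRE livers (-1.61 ± 0.20, adjusted p = 3.56e-06) and is robust. Fam107a, an actin-associated stress protein, was at 3.11, 15.1 and 2.37 CPM against 0.252, 0.149 and 0.185 CPM (-5.07 ± 0.71, adjusted p = 2.62e-05), low levels that do not overlap. Mt1 and Serpina3n lost their call in the further fits, as given above. A match is a description of these letters and not of a used site.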

How the data were processed

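RNA of 36 Nr3c1fl/fl and 27 C57BL/6 livers and GR peaks at ZT10 were used; samples were grouped by their labels. The authors deposited raw counts per RefSeq transcript, 1 column per library, and peak lists as positions only. The submitters' processing notes name STAR, HOMER, DESeq2 and mm10 but not what each was used for. Strand use in counting is not given in these sources. Of counts from 1 to 10 in the ZT12 libraries 77.2% to 85% are even. Peak starts were read as counting from 0.

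Rows were matched by accession to the RefSeq gene table of GRCm38.p6 (40219 of 40458 rows, 24790 genes), and the row with the highest total stood for a gene with several. Unmatched rows, 3.83% to 24.6% of counts at ZT12, stayed out of library sizes and tests. Counts were tested with edgeR 4.0.16 in R 4.3.3 (TMM, filterByExpr, quasi-likelihood F-test, 1 fit over all 36 libraries in 12 groups, another over 27 for C57BL/6), with Benjamini-Hochberg adjustment and SE as the size of the change divided by √F. The test was checked on simulated counts with the same spread for all genes and no shift tied to the NR_046233 share. That check therefore does not cover the high-share libraries. Alternatives were DESeq2 1.42.0, RLE factors, no filter, the NR_046233 share as a covariate, the ZT12 groups alone, a replicate block, other row choices, leaving out libraries, other peak distances and lists. Leaving out GFP replicates 1 and 2 together was added after seeing the data. The tested rows held 19.36, 13.87 and 38.38 M counts in GFP and 29.69, 36.1 and 39.12 M in CRE replicates 1, 2 and 3. These totals, lowest in the 2 high-share GFP libraries, set the counting error. Wilson intervals cover counting error only.

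The members, gene lists and rules were chosen with earlier results of these data known. Named are 32 fixed genes, up to 4 genes with the smallest p of each of 25 pathway and 12 marker lists, the 20 largest changes each way among called genes of at least 5 CPM without overlap, and 8 genes per difference between hours. Some genes chosen in this way are not reported here.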

Additional observations from a re-analysis of the deposited data

Results flagged for a closer look

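The effect of CRE at ZT12 differed from the mean effect of the 5 other hours, by a test of the difference itself, for 27 genes. Of those 5 hours 4 were fed, so hour and food differ together in this comparison. Against ZT10 alone or ZT13 alone, the hours next to ZT12, 0 genes passed with edgeR. The 8 with the smallest p, all lower at ZT12, were Lpin1 (-1.87 ± 0.25 on the log2 scale, adjusted p = 0.000589), Myo1e (-0.74 ± 0.12), Il1r1 (-2.23 ± 0.36), Cpeb2 (-0.91 ± 0.15), Pptc7 (-0.70 ± 0.12), Pfkfb3 (-1.45 ± 0.26), Taf2 (-0.70 ± 0.13) and Pfkfb2 (-0.63 ± 0.12, adjusted p = 0.0242). All 8 were robust at ZT12 itself, but the difference contains that same ZT12 effect, so this is no separate support. The neighbouring hours had the same direction for Cpeb2 (-1.01 ± 0.14 at ZT10 and -1.16 ± 0.14 at ZT13). They did so for Il1r1 too (-1.10 ± 0.33 and -1.81 ± 0.33), which was not called at ZT10 (edgeR adjusted p = 0.137). The 27 also include Il31ra, Cntnap5b, Camk1d, Sspn and Lars2, which were far higher in GFP replicates 1 and 2 than in any other ZT12 library. Others of the 27 also shrank with the NR_046233 share as a covariate: Gphn went from -2.25 to -0.44 and Mphosph8 from -1.53 to -0.50. Without GFP replicate 2, which held the highest GFP level of Lpin1 and Il1r1, only Lpin1 passed (-1.67 ± 0.26, adjusted p = 0.0113).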

How the results depend on the processing

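The 589 calls at ZT12 became 776 with DESeq2, 785 with the ZT12 groups alone, 590 with RLE factors, 563 without a filter and 578 with unmatched rows kept, and stayed at 589 with the row highest at ZT12. They fell to 240 with the NR_046233 share as a covariate, to 105 without the libraries over 20% and to 100 without GFP replicates 1 and 2, and ranged from 267 (without GFP replicate 2) to 483 when 1 library was left out; without CRE replicates 1, 2 and 3 they were 339, 318 and 389. Fewer samples were fitted in the last cases. Of 102 named called genes 59 were called whichever library was left out, and 63 with the covariate. With a replicate block 571 were called, 550 of them shared; same-numbered GFP and CRE libraries correlated by 0.059, 0.127 and 0.106, so the numbers were not taken as pairs, although each library correlated best with its own number. The difference from ZT10 went from 0 genes to 1 with DESeq2. That from ZT13 went from 0 to 10 with DESeq2 and ranged from 0 to 5 (without GFP replicate 3) when 1 library was left out. That from the mean of other hours went from 27 to 54 with DESeq2, 21 with the block, 2 with the covariate, 1 to 25 when 1 library was left out and 0 without GFP replicates 1 and 2; it could not be fitted without the libraries over 20%, which include every GFP library at ZT10, and the same holds for the difference from ZT10. The 2781 genes called across dusk in C57BL/6 livers became 3064 with DESeq2, 2827 with the block, 2776 with RLE factors and 2447 without a filter, and were 1802 (without ZT10 replicate 2) to 2601 when 1 library was left out.

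Lower genes had a peak at 74.8% within 10 kb, 92.4% within 100 kb, 94.1% for peaks called against input and 93.2% against CRE chromatin; higher genes at 33.1%, 64%, 86.4% and 86.9%, and all genes at 21%, 53%, 62.1% and 70.4%. The last 2 lists separate the directions less.

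Signs turned for 12 of the genes named. When 1 library was left out, Arntl ranged from -0.86 to 0.18, Fgf21 from -0.70 to 1.02, Ppp1r3g from -0.30 to 0.54 and S100a9 from -2.40 to 2.22. Arntl was at 0.07 with the covariate and 0.39 without the libraries over 20% or GFP replicates 1 and 2. In these last fits Camk1d was at 0.56, Il31ra at 0.66, Sspn at 0.69 and 0.70, Lars2 at 0.68, Cmss1 and Filip1l at 0.26, D130009I18Rik at 0.24, Mir6236 at 0.12, Fgf21 at 0.34, S100a9 at 2.36 and 2.35 and Ppp1r3g at -0.52. Fgf21 was also at 0.11 with the block and Ppp1r3g at -0.26, Cmss1 and Filip1l at 0.08 and S100a9 at 0.68 with the covariate. The cause was not tested. Low levels, such as those of Fgf21 and S100a9, limit what can be read from a fold change.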

Other observations

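Some robust genes belong to no list above and were named after their values were seen. Tnfrsf1b, a receptor for tumour necrosis factor, was at 90, 93.8 and 99.3 CPM against 51.5, 48.1 and 44.8 CPM (-0.97 ± 0.15, adjusted p = 0.000114). Nampt, the rate-limiting enzyme of NAD salvage, was at 169, 209 and 211 CPM against 118, 136 and 112 CPM (-0.69 ± 0.14, adjusted p = 0.00396). The groups do not overlap for either of these genes.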
